A study of Mus musculus with 6 samples.

Results

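Transcript levels of 8 kidney lineage transcription factors (Pax2, Pax8, Hnf4a, Lhx1, Emx2, Sox9, Tfcp2l1 and Gata3) were read in mouse kidney epithelial cells that were either attached or held in suspension. The factors were found by an exact match in the gene column of the authors' deposited table. Of the 8 genes, 7 had a row of their own among 37757 rows, and 5 of these 7 were among the 14748 rows that the authors tested. Gata3 stood only in a row that also names 9230102O04Rik, so its value is given apart and is not counted with the factors.

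The cells were isolated from mice 8 weeks old of the strain C57/Bl6J, and all of them, attached cells included, carried the genotype Bim-/- Bmf-/-. Bim and Bmf are BH3-only proteins that promote apoptosis, so the comparison concerns cells labelled as lacking both, and no cells with these genes intact were compared. There were 3 libraries of attached cells and 3 of cells kept in suspension for 4 h, and the titles of the latter carry the word anoikis, which is cell death on loss of anchorage. Whether the libraries are from separate cultures or animals is not stated in the labels, so the spread behind the authors' p-values may be only technical. The deposited table gives 1 FPKM per gene and condition (fragments scaled to transcript length and to library size), so levels can be compared between genes, but no spread between libraries can be shown and the depth is unknown.

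As background, PAX2 and PAX8 are closely related paired-domain proteins that act together to set up the nephric lineage and stay on in much of the mature tubule and collecting duct. LHX1 and EMX2 are homeodomain proteins needed in the nephric duct and ureteric bud, where GATA3 acts with PAX2 and PAX8. HNF4A is a nuclear receptor that drives the proximal tubule programme, TFCP2L1 acts in distal tubule and collecting duct cells, and SOX9 marks progenitors and injured tubule cells that regenerate.

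In attached cells the factors fell into a group with clear levels and a pair near 0. Pax2 was highest at 150 FPKM, followed by Pax8 at 104, Emx2 at 23.2, Sox9 at 15.7 and Tfcp2l1 at 12.9 FPKM according to the authors' deposited table. Lhx1 was listed at 0.0255 and Hnf4a at 0.00256 FPKM according to the authors' deposited table. Among 12811 tested rows with at least 1 FPKM in either condition, Pax2 stood at percentile 95.9 and Pax8 at percentile 93.3 of attached levels. Emx2, Sox9 and Tfcp2l1 stood nearer the middle, at percentiles 66.4, 55.4 and 49.6 of attached levels. The factors of the early nephric lineage thus included both the highest levels (Pax2, Pax8) and one near 0 (Lhx1), and the proximal tubule regulator Hnf4a was near 0 as well.

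In suspended cells the order changed. Pax8 came first at 37.1 FPKM, followed by Pax2 at 30.9, Tfcp2l1 at 20.7, Sox9 at 15.2 and Emx2 at 12.9 FPKM according to the authors' deposited table. Lhx1 and Hnf4a were again lowest, at 0.00505 and 0.00498 FPKM according to the authors' deposited table. The ratio of Pax2 to Pax8 FPKM was 1.44 attached and 0.833 suspended. Emx2 went from place 3 to place 5, and its level was below those of Sox9 and Tfcp2l1 only in the suspended column. Without values per library it was not tested whether neighbours in either order differ beyond their spread. Pax2 and Pax8 together made up 83.1% of the summed FPKM of the 7 rows attached and 58.2% suspended, as the sum went from 306 to 117 FPKM.

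**Figure D1:**
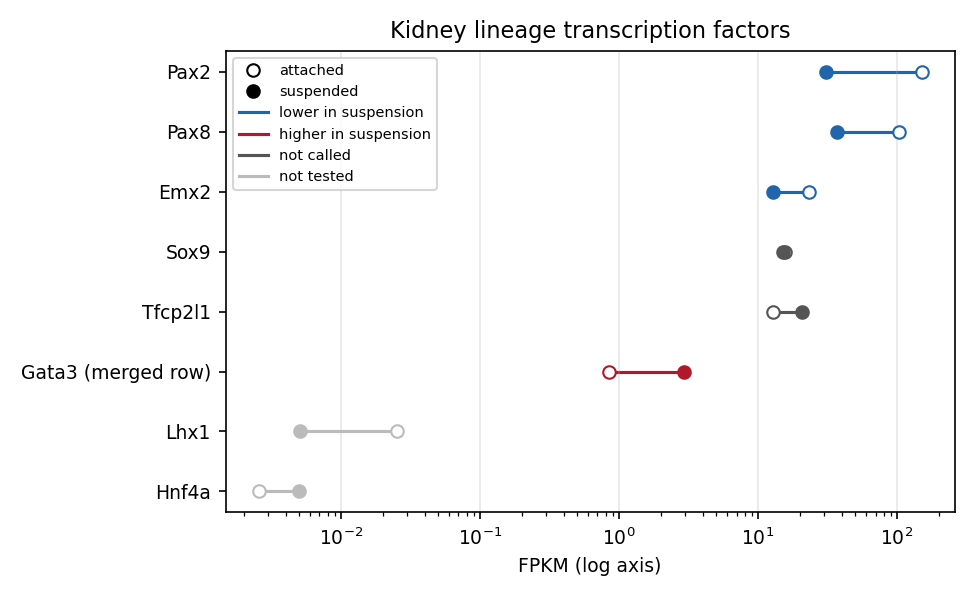
FPKM of each factor on a log axis, 1 value per condition drawn from the authors' deposited table (open circles for attached cells, filled for suspended), with lines coloured by the authors' call at q below 0.05. Pax2, Pax8 and Emx2 moved left, from 150 to 30.9, 104 to 37.1 and 23.2 to 12.9 FPKM, while Hnf4a and Lhx1 stayed under 0.1 FPKM. The merged row holding Gata3 is drawn for completeness.

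Of the 5 tested factors, 3 were called lower in suspension (Pax2, Pax8 and Emx2), 0 were called higher and 2 were not called (Sox9 and Tfcp2l1), where a call is a q below 0.05 in the authors' deposited table. The same call was made for 51.0% of all tested rows, with 26.3% called lower and 24.7% called higher. Among 8026 tested rows with at least 10 FPKM in either condition, a level that all 5 tested factors reached, 59.3% were called and 36.1% were called lower. Higher calls made up 23.1% there. A count of 3 called in 5 is near the shares called in either direction (51.0% and 59.3%). All 3 calls were lower, and whether 5 factors lean in one direction was not tested. At q below 0.01 the same 3 factors were lower, beside 21.0% of tested rows (20.3% higher, 41.3% either way). With a 2-fold minimum as well as q below 0.05, Pax2 and Pax8 were lower, beside 7.12% of tested rows (12.4% higher, 19.5% either way). The median log2 fold change (suspended over attached) of the 5 was -0.85, and that of 14616 tested rows above 0 in both conditions was -0.04. Many of those rows are far lower than the 5 factors, and the median of 11677 rows with at least 1 FPKM in both conditions was -0.11. In bulk RNA, fewer cells of a type and less RNA per cell cannot be told apart.

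Pax2, the paired-domain regulator of the nephric duct, changed most. Its level was 150 FPKM attached and 30.9 FPKM suspended, which was 4.86-fold lower (log2 -2.28, q = 0.000185 by the authors' deposited table). This q is the smallest in the table and is shared by many rows. A log2 fold change as low as that of Pax2 or lower was found in 59 of 11677 tested rows of 1 FPKM or more in both conditions. Among 882 tested rows with at least 100 FPKM attached, 21 fell by at least as much, Pax2 included. These rows were chosen by their attached level alone, which favours falls, so this count is only a description. The gene lies on the plus strand of chromosome 19, positions 44756045 to 44837871 (GENCODE M21 annotation, GRCm38). A microRNA gene (Mir6405) and the antisense genes Gm20395 and 1700039E22Rik lie within its bounds, and none of the 3 shares an exon base with Pax2. The antisense row 1700039E22Rik stood at 0.347 and 0.0332 FPKM (q = 0.267) by the authors' deposited table, far below Pax2.

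Pax8, the close relative of Pax2, fell as well. It stood at 104 FPKM attached and 37.1 FPKM suspended, 2.81-fold lower (log2 -1.49, q = 0.000185 by the authors' deposited table). A log2 fold change as low or lower was found in 299 of the 11677 tested rows of 1 FPKM or more in both conditions. Among the 882 rows with at least 100 FPKM attached, 49 fell by at least as much as Pax8. Pax8 passed that cut only through its attached level, so this second count is only a description. The difference between the falls of Pax2 and Pax8 was not tested, because that needs values per library. The authors' test score, which sets a change against its error, was -10.6 for Pax2 and -3.87 for Pax8 according to the authors' deposited table. Per unit of score the change of Pax8 was 0.385 on the log2 scale, at percentile 94.7 of 1320 rows within 1.5-fold of its mean level, so its score was small for its change. That of Pax2 was 0.216, at percentile 66.4 of 1015 such rows. The gene lies on the minus strand of chromosome 2, positions 24420560 to 24475599 (GENCODE M21, GRCm38). It shares 367 exon bases with the antisense gene Gm13415, whose row (merged with another transcript) stood at 0.717 and 0.285 FPKM (q = 0.495) by the authors' deposited table.

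Because Pax2 and Pax8 are related and fell together, the sequences of their transcripts were compared and motifs were counted before their starts. None of the 5496 distinct 50-base words in the GENCODE transcripts of Pax2 occurred in a transcript of any other gene, Pax8 included. Of 6237 such words in Pax8, 276 (4.43%) occurred in another gene, all of them in the overlapping Gm13415. No word of this length was shared between Pax2 and Pax8. The read length and the use of strand in counting are not given in these sources.

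The 250 bases before a RefSeq start of each gene are printed as a description, with Tfcp2l1 added as a factor that was not called. Which start these cells use is not known, and the sequences were not aligned with each other. They come from RefSeq (GRCm38.p6), read 5' to 3' on the gene's strand. Capitals mark matches on either strand to 8 motifs, which are the GC box (letters GGGCGG), the TATA box (letters TATAAA), the CCAAT box (its name gives the letters), the E-box (letters CACGTG), the TEAD motif (letters GGAATG), the AP-1 motif (letters TGANTCA), the CRE (letters TGACGTCA) and the ETS motif (letters CCGGAA). No matches overlapped in these windows. The windows are chr19:44755502-44755751 (plus strand) for Pax2, chr2:24475600-24475849 (minus strand) for Pax8 and chr1:118627695-118627944 (plus strand) for Tfcp2l1.
Pax2: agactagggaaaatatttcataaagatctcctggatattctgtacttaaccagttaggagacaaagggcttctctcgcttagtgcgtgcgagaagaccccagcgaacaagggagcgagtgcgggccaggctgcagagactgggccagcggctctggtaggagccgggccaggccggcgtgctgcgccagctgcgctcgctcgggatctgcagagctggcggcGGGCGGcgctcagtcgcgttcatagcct
Pax8: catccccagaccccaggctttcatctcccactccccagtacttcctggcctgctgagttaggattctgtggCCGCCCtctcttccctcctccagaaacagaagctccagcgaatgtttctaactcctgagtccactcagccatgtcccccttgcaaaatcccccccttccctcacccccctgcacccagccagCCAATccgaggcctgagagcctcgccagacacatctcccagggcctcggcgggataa
Tfcp2l1: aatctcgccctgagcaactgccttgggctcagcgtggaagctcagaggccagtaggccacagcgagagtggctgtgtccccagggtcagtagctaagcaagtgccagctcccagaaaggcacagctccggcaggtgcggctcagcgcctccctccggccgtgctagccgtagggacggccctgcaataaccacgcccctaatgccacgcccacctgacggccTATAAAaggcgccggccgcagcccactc
The Pax2 window held 1 GC box, which starts 28 bases before the start site, and 20 CpG dinucleotides, against a median of 6 over 32851 RefSeq windows of the same length. The Pax8 window held 1 GC box and 1 CCAAT box, starting 179 and 57 bases before the start site, with 6 CpG dinucleotides. The Tfcp2l1 window held 1 TATA box, starting 28 bases before the start site, and 16 CpG dinucleotides. Of all windows 32.7% hold the GC box, 33.8% the CCAAT box and 12.4% the TATA box. The E-box (6.02% of windows), TEAD (12.6%), AP-1 (6.75%), CRE (1.55%) and ETS (12.0%) letters were not in these 3 windows. RefSeq gives 2 further starts for Pax2, and the content depends on the start: the window before 44746601 held 5 CpG dinucleotides and none of the 8 motifs, and that before 44756906 held 25 CpG dinucleotides, 1 GC box and 1 ETS match. A match is a description of the letters and not a binding site.

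Emx2, a homeodomain factor of the nephric duct and ureteric bud, fell less. Its level was 23.2 FPKM attached and 12.9 FPKM suspended, 1.80-fold lower (log2 -0.85, q = 0.000185 by the authors' deposited table). A log2 fold change as low or lower was found in 1272 of the same 11677 rows. Emx2 lies on the plus strand of chromosome 19, positions 59458372 to 59465357, and its first exon overlaps the first exon of the antisense gene Emx2os head to head over 264 bases (GENCODE M21, GRCm38). Emx2os went from 2.73 to 0.748 FPKM, 3.65-fold lower (q = 0.000185 by the authors' deposited table), so both directions of this locus were called lower. The 50-base words shared by the 2 genes were 215 of 2996 in Emx2 (7.18%). Where strand was not counted, reads from this overlap cannot be assigned to either gene, and the part of this in the result was not tested.

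Sox9, a marker of tubule progenitors and of regenerating tubule cells, was at 15.7 FPKM attached and 15.2 FPKM suspended (log2 -0.05, q = 0.770 by the authors' deposited table). This small difference becomes 0.06 when the median log2 fold change of the 11677 rows with at least 1 FPKM in both conditions is set to 0. The smallest called change among 3075 rows within 1.5-fold of its mean level was 0.26 on the log2 scale, larger than the difference of Sox9. Sox9 lies on the plus strand of chromosome 11, positions 112782224 to 112787760 (GENCODE M21, GRCm38), and 0 of its 4086 distinct 50-base words occurred in other genes.

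Tfcp2l1, the factor of distal tubule and collecting duct cells, had the higher value in suspension, 12.9 FPKM attached and 20.7 FPKM suspended. This 1.61-fold difference (log2 0.68) was not called (q = 0.405 by the authors' deposited table). Most rows like it were called: of 392 rows within 1.5-fold of its mean level and within 0.1 of its log2 size, 369 (94.1%) passed. In the authors' deposited table its score was 0.127, or 5.39 on the log2 scale per unit of score, at percentile 99.9 of 3068 rows of like level, whose median was 0.247. The score of Tfcp2l1 was thus among the smallest for the size of its change, and a q above the threshold does not show that its level was the same. Tfcp2l1 lies on the plus strand of chromosome 1, positions 118627945 to 118685168, and 130 of its exon bases are also annotated as the small nuclear RNA Gm23497 (GENCODE M21, GRCm38). Of its 9387 distinct 50-base words, 87 (0.927%) occurred in other genes, 81 of them in Gm23497. The part of this overlap in the small score was not tested.

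**Figure D2:**
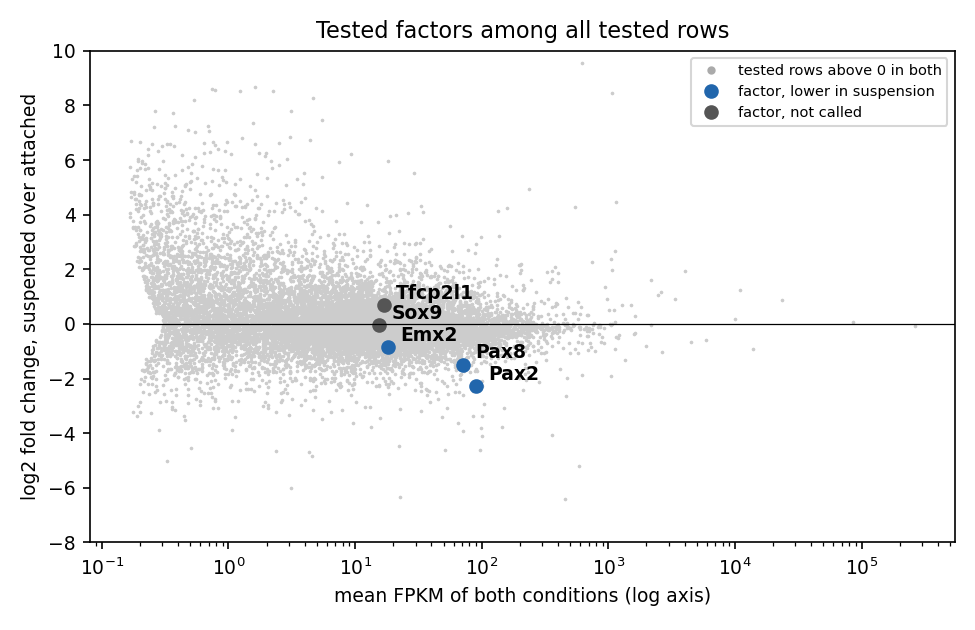
Log2 fold change (suspended over attached) against the mean FPKM of both conditions (log axis) for tested rows above 0 in both conditions (grey) and the 5 tested factors, from the authors' deposited table. Pax2 and Pax8 lie in the lower part of the cloud at -2.28 and -1.49, with other rows below them, and Emx2 lies at -0.85. Sox9 and Tfcp2l1, neither of them called, lie near and above 0.

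Hnf4a and Lhx1 were not tested by the authors, and no fold is given for either. Hnf4a, the proximal tubule regulator, was listed at 0.00256 FPKM attached and 0.00498 FPKM suspended according to the authors' deposited table. Lhx1, the homeodomain factor of the nephric duct, was listed at 0.0255 and 0.00505 FPKM according to the authors' deposited table. Both genes were near 0 in both conditions. Hnf4a lies on chromosome 2, positions 163506808 to 163572910, and Lhx1 on chromosome 11, positions 84518284 to 84525535 (GENCODE M21, GRCm38).

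The merged row of Gata3, a zinc finger factor of the nephric duct and collecting duct, and 9230102O04Rik stood at 0.846 FPKM attached and 2.95 FPKM suspended, 3.49-fold higher (q = 0.000185 by the authors' deposited table). The direction was opposite to that of Pax2 and Pax8, at a far lower level. Gata3 spans positions 9857078 to 9890034 of chromosome 2 on the minus strand and shares 77 exon bases with 9230102O04Rik on the same strand (GENCODE M21, GRCm38). How much of the row belongs to Gata3 cannot be told.

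Other regulators of the kidney lineage moved in both directions. In a list of 44 such factors, 42 were matched and 33 were tested, of which 10 rose, 9 fell and 14 were not called according to the authors' deposited table. These 19 calls in 33 (57.6%) are near the 51.0% of all tested rows. The median log2 fold change of the 33 was -0.07. It became 0.04 when the median of the 11677 rows with at least 1 FPKM in both conditions was set to 0. The list thus has no direction that holds under both scalings. Glis2, a zinc finger factor mutated in nephronophthisis, went from 60.9 to 21.2 FPKM, and Etv4, an ETS factor downstream of RET, from 56.5 to 24.9 FPKM (both q = 0.000185 by the authors' deposited table). Irx2 fell as well, from 51.0 to 28.4 FPKM (q = 0.000185 by the authors' deposited table). Against these, Pou3f3, a POU factor of the loop and distal tubule, rose from 36.3 to 119 FPKM (3.27-fold, q = 0.000185 by the authors' deposited table). The epithelial ETS factor Ehf rose from 84.0 to 117 FPKM and Sox4 from 58.1 to 94.4 FPKM (both q = 0.000185 by the authors' deposited table). Sall1, a zinc finger factor of nephron progenitors named after its values were seen, rose from 12.0 to 44.5 FPKM (q = 0.000185 by the authors' deposited table).

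**Figure D3:**
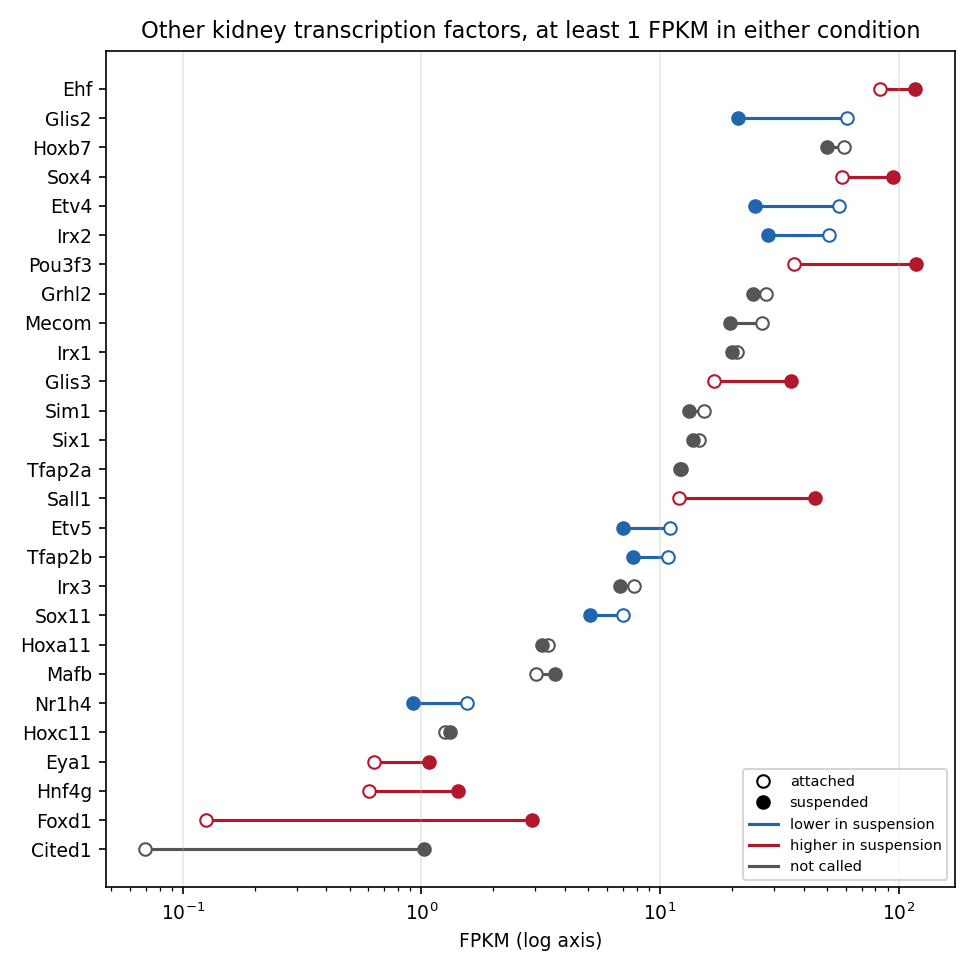
FPKM of 27 other kidney transcription factors with at least 1 FPKM in either condition (log axis), with 1 value for each condition in the authors' deposited table, coloured by call. Pou3f3 and Sall1 moved right to 119 and 44.5 FPKM while Glis2 and Etv4 moved left to 21.2 and 24.9 FPKM, so highly expressed factors moved both ways.

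Relatives of the factors by protein family were mostly near 0. Of 39 relatives, all matched, 13 reached 1 FPKM in either condition and 18 were tested, of which 6 rose, 6 fell and 6 were not called according to the authors' deposited table. The called share was 66.7%, against 51.0% of all tested rows (24.7% higher, 26.3% lower). The list shares 8 genes with the list of other kidney factors. Apart from Pax2 and Pax8, the PAX gene with the highest level was Pax9, at 2.09 FPKM attached and 2.72 FPKM suspended (q = 0.209 by the authors' deposited table), and Lhx9 led the LHX genes, at 1.99 and 0.996 FPKM (q = 0.000185 by the authors' deposited table). SOX genes moved both ways. Sox4, the SOX gene with the highest level in the list, rose as given above, and Sox8 and Sox7, both under 1 FPKM and named after their values were seen, went from 0.0647 to 0.794 and from 0.0726 to 0.584 FPKM (both q = 0.000185 by the authors' deposited table). Among those that fell, Sox13 went from 11.6 to 5.44 FPKM, Sox6 from 6.59 to 3.07 FPKM (both q = 0.000185 by the authors' deposited table), Sox11 from 7.01 to 5.08 FPKM (q = 0.0134 by the authors' deposited table), and Sox12 from 5.19 to 3.71 FPKM (q = 0.00308 by the authors' deposited table). Tfcp2, the relative of Tfcp2l1, went from 7.42 to 9.55 FPKM (q = 0.0164 by the authors' deposited table), a rise of 1.29-fold that was called at a smaller size than the uncalled difference of Tfcp2l1. Hnf4g, the relative of Hnf4a, was at 0.603 FPKM attached and 1.43 FPKM suspended (q = 0.000185 by the authors' deposited table), above Hnf4a in both conditions.

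Signals that act on or through these factors in the nephric duct and ureteric bud were read next. Of 22 listed genes, 21 were matched and 18 tested, of which 8 rose, 8 fell and 2 were not called according to the authors' deposited table, and 3 of the listed genes also stand in the list of other kidney factors. The called share was 88.9%, against 51.0% of all tested rows. The 2 listed genes with the highest attached levels fell. Wnt7b, a collecting duct WNT ligand, went from 228 to 109 FPKM and Npnt, the integrin ligand nephronectin, from 87.2 to 51.0 FPKM (both q = 0.000185 by the authors' deposited table). Spry1, an inhibitor of RET signalling, went from 31.6 to 5.29 FPKM, the NOTCH ligand Jag1 from 26.6 to 13.6 FPKM and the R-spondin receptor Lgr4 from 20.5 to 14.8 FPKM (each q = 0.000185 by the authors' deposited table). Several that rose started near 0 or low. Wnt4, a WNT ligand known as a PAX2 target in the kidney and named after its values were seen, was at 1.53 and 7.64 FPKM (q = 0.000185 by the authors' deposited table). Ret, the receptor gene controlled by PAX2, PAX8 and GATA3 in the nephric duct, and its ligand gene Gdnf, both named after their values were seen, went from 0.165 to 1.03 FPKM and from 0.144 to 0.974 FPKM (both q = 0.000185 by the authors' deposited table).

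Segment genes were compared with the levels of their regulators. Near-zero Hnf4a stood beside low proximal tubule genes: only 4 of 20 reached 1 FPKM in either condition, and 14 of the 20 were not tested. Of the 6 tested, 3 rose, 2 fell and 1 was not called according to the authors' deposited table, which is 83.3% called beside 51.0% of all tested rows. Aqp1, a water channel also present in the thin descending limb, had the highest level, at 79.1 FPKM attached and 11.8 FPKM suspended (q = 0.000185 by the authors' deposited table). Ass1, an enzyme of arginine synthesis, went from 2.45 to 13.4 FPKM (q = 0.000185), Slc17a1 from 2.92 to 1.5 FPKM (q = 0.0322) and Ggt1 from 0.827 to 1.56 FPKM (q = 0.0135) by the authors' deposited table. Genes of the loop, distal tubule and collecting duct were mostly low too, while Tfcp2l1 stood at 12.9 FPKM attached and 20.7 FPKM suspended. Of 20 such genes, 6 reached 1 FPKM in either condition and 1 reached 10 FPKM. Of the 11 tested, 9 rose, 1 fell and 1 was not called according to the authors' deposited table. The called share was 90.9%, where 24.7% of all tested rows were called higher and 26.3% lower. Of the 9 that rose, 4 reached 1 FPKM. Scnn1a, a subunit of the epithelial sodium channel, went from 3.67 to 8.39 FPKM (q = 0.000185), and the water channel Aqp3 from 0.0334 to 3.22 FPKM (q = 0.0135) by the authors' deposited table. Cldn10 went from 1.37 to 2.84 FPKM (q = 0.00334), and the anion exchanger Slc26a4 was listed at 0 and 1.23 FPKM (q = 0.000185) by the authors' deposited table. The tight junction gene Cldn8 fell from 13.5 to 7.28 FPKM (q = 0.000185 by the authors' deposited table).

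Most genes of tubule injury, which SOX9 is known to accompany, were well expressed: 10 of 12 reached 10 FPKM in either condition. Sox9 itself stood at 15.7 FPKM attached and 15.2 FPKM suspended and was not called. Of the 12 injury genes, all tested, 4 rose, 5 fell and 3 were not called according to the authors' deposited table. That is 75% called, beside 51.0% of all tested rows and 59.3% of those with at least 10 FPKM. Spp1 went from 5553 to 3512 FPKM (q = 0.000676), Krt7 from 721 to 380 (q = 0.000185), Havcr1, encoding kidney injury molecule 1, from 24.2 to 15.1 (q = 0.000185) and Krt20 from 22.8 to 15.8 FPKM (q = 0.000355) by the authors' deposited table. Clu rose from 40.2 to 66.5 FPKM and Lcn2 from 22.4 to 35.5 FPKM (both q = 0.000185 by the authors' deposited table). Vcam1, named after its values were seen, rose from 0.188 to 2.70 FPKM (q = 0.000185 by the authors' deposited table). It was the only called injury gene that changed at least 2-fold.

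The label of kidney epithelial cells was checked against markers. All 8 epithelial markers had at least 95.4 FPKM attached and 201 FPKM suspended, among them Cdh16, a kidney-specific cadherin, at 441 and 346 FPKM according to the authors' deposited table. They summed to 3644 FPKM attached and 3736 FPKM suspended. All 8 were tested and 5 were called (62.5%). Of all tested rows 51.0% were called (24.7% higher, 26.3% lower), and of those with at least 10 FPKM 59.3%. Of the 5 markers called, Cdh1 (95.4 to 201 FPKM), Krt8 and Krt19 rose, and Cdh16 and Krt18 fell. Markers of other cells were lower, and the sum of each list went up mostly through the few genes that were tested. The sum of 8 fibroblast markers went from 0.258 to 2.22 FPKM. Only 1 of the 8 was tested, Pdgfra (0.155 to 1.81 FPKM), and it was called higher. It made up most of the sum, and the untested markers, among them Col1a1, were under 1 FPKM in both conditions. Col3a1 and Lum were listed at 0 in both conditions. The sum of 8 endothelial markers went from 1.72 to 5.76 FPKM. Only 2 of the 8 were tested, Flt1 (0.501 to 2.18 FPKM) and Ehd3 (0.858 to 3.26 FPKM), and both were called higher. They made up most of the sum. The untested markers, among them Pecam1 and Cdh5, were under 1 FPKM in both conditions, and Emcn was listed at 0 in both. The sum of 8 leukocyte markers went from 26.0 to 50.9 FPKM, with 3 of 8 tested and all 3 called higher. Most of this sum was Cd68 (23.4 to 34.9 FPKM) and Ptprc (1.42 to 12.4 FPKM, both q = 0.000185 by the authors' deposited table). Csf1r was called as well, and the 5 untested markers, among them Lyz2 and Cd3e, were under 1 FPKM in both conditions. The sum of 8 podocyte markers went from 10.2 to 36.2 FPKM. Of these 8, 4 were tested and 3 were called, all higher. The called genes were Synpo (2.53 to 12.6 FPKM), Cdkn1c (3.08 to 12.0 FPKM) and Podxl (1.60 to 7.87 FPKM), which made up most of the sum. The untested markers, among them Nphs1 and Wt1, were under 1 FPKM in both conditions. Nphs1 was listed at 0 attached and near 0 suspended. The summed FPKM of the 12 mitochondrial rows also went up, from 31198 to 68368. The part of these markers and of the mitochondrial rows in the changes of the lineage factors was not tested.

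**Figure D4:**
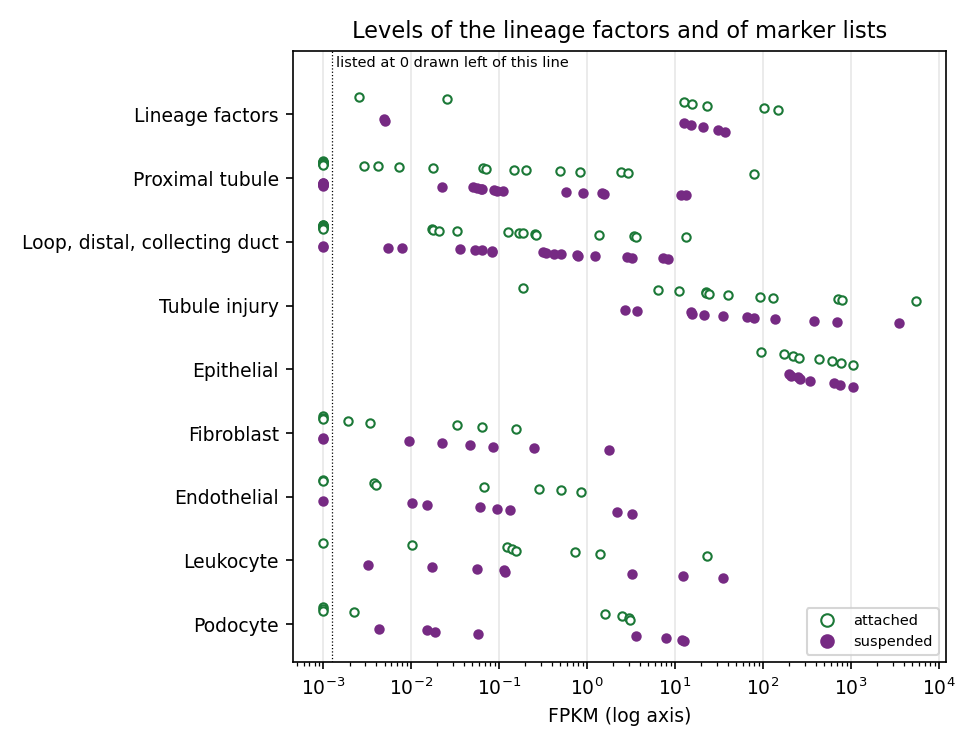
FPKM (log axis) of the 7 lineage factor rows and of each marker list, 1 point per gene and condition from the authors' deposited table (open green attached, filled purple suspended), with genes listed at 0 drawn left of the dotted line. Epithelial markers lie at 95.4 FPKM or above. Most proximal tubule genes and most loop, distal and collecting duct genes lie under 1 FPKM, as Hnf4a does.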

How the data were processed

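Messenger RNA from 6 libraries was sequenced on an Illumina instrument, per the labels' protocols. TopHat, Bowtie, Cufflinks (version 1.0.3) and Cuffdiff, with build mm10, are listed in the submitters' processing notes, and their settings, annotation and strand use are not stated in these sources. For each gene and condition the authors deposited 1 FPKM, pooled over libraries, with a log2 fold change, a test score, a p-value and a q-value per the file headers. Columns ending in A and S were read as attached and suspended. Deposited starts count from 0, so positions were taken from GENCODE M21 (GRCm38).

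Calls are the authors' q below 0.05, the only test across genes. The deposited log2 fold change was recomputed to within 4.0e-05. Setting the median log2 fold change of 11677 rows with at least 1 FPKM in both conditions (-0.11) to 0 raises every log2 value by that amount. For rows of like level, a window of 1.5-fold around the mean FPKM was used. Promoter windows covered 7 of the 8 listed genes (10 windows), with no entry for Sox9. Adgre1 was matched by its older symbol, and genes in rows naming several genes were not counted.

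The factors and lists were chosen with earlier results of these data known. Named genes are the factors, their overlapping genes, and up to 6 called genes per list with the highest FPKM of at least 1. Some listed genes enter the counts but are not reported here by name. Other names are marked as chosen after their values were seen, and the family leaders, Hnf4g and the cell type markers were also chosen so. The calculations were checked on simulated data with 200 changed genes. Python 3.11.15, NumPy 2.4.6, pandas 2.3.3 and matplotlib 3.10.9 were used. Alternatives covered the threshold, a fold minimum, the adjustment, a low-value filter, pseudocounts and scaling.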

Additional observations from a re-analysis of the deposited data

How the results depend on the processing

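The directions of Pax2, Pax8 and Emx2 held under pseudocounts of 1 and 0.1 FPKM and under both rescalings, and all 3 were called at q below 0.01. With a 2-fold minimum Emx2 dropped out, which left 2 factors lower. The rescalings moved the log2 fold change of Pax2 to at most -2.17, of Pax8 to -1.37, of Emx2 to -0.73 and of Tfcp2l1 to 0.80, and turned that of Sox9 to 0.06 or 0.07. With a 2-fold minimum, counts of higher calls went to 5 for duct signals, 1 for proximal tubule and 1 for injury genes, and counts of lower calls to 3 for other kidney factors, 2 for family relatives, 3 for duct signals, 1 for proximal tubule genes, 0 for loop, distal and collecting duct genes and 0 for injury genes. Over all rows a 2-fold minimum left 1833 higher and 1050 lower calls, from 3639 and 3885. With at least 1 FPKM required, higher calls were 3 for family relatives, 5 for duct signals and 4 for loop, distal and collecting duct genes. At q below 0.01, 1 proximal tubule gene was called lower. The other 49 of 64 list counts stayed within 1.5 times. No paired analysis was possible because the deposited table holds 1 value per condition, and leaving out a replicate was not run for the same reason. Depth is unknown, so low values near 0 carry no error here.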

Other observations

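HOX genes, which give positional identity to the body axis and the kidney field, were read after the data were seen. Among 32 rows naming 1 HOX gene, 15 had at least 10 FPKM attached and 26 were tested, of which 1 rose, 12 fell and 13 were not called according to the authors' deposited table. Over all tested rows 51.0% were called, 26.3% lower and 24.7% higher. Of those with at least 10 FPKM in either condition 59.3% were called, 36.1% lower and 23.1% higher. Among tested genes, 5 of 8 fell in the Hoxb cluster, 4 of 9 in Hoxa, 1 of 6 in Hoxc and 2 of 3 in Hoxd, and the clusters were not tested against each other. In the Hoxb cluster Hoxb9 went from 89.5 to 40.9, Hoxb8 from 62.5 to 31.6, Hoxb2 from 44.6 to 23.7, Hoxb6 from 43.9 to 21.8 and Hoxb4 from 12.9 to 6.21 FPKM (each q = 0.000185 by the authors' deposited table). Hoxb7, which lies between Hoxb6 and Hoxb8 and whose promoter is widely used to mark the ureteric bud, was at 59.0 and 50.2 FPKM (q = 0.0813 by the authors' deposited table). The 1 gene that rose was Hoxa13, from 0.492 to 2.84 FPKM (q = 0.000185 by the authors' deposited table). Neighbouring HOX genes overlap and share transcripts, so their rows are not independent, and rows naming several HOX genes were left out.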
